A study of Mus musculus with 24 samples.

Results

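Genes of glycolysis and of the hypoxia response were followed in C2C12 cells, a line of mouse myoblasts. A list of 36 genes was used, named for their function and drawn up with earlier results of these data known. A gene was read from the probe set with the highest mean over all arrays, among those assigned to that gene alone. Such a probe set existed for 32 of the 36 genes, out of 12393 genes on the array. Of the 32, 29 rose above the 40th percentile of an array's values on at least 3 arrays and were tested, out of 8616 genes tested in all. The 4 listed genes without a single-gene probe set were Gpi1, Eno1, Ankrd37 and Bnip3l. The 3 with one that did not pass were Aldoc, above the percentile on 1 array, and Slc16a3 and Epas1, above it on 0.

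The cells carried either siRNA against IFT88 (IFT88KD), which encodes a transport protein needed to build cilia, or a negative control siRNA. Each was measured in 4 culture states with 3 Affymetrix arrays per group, 24 arrays in 8 groups. Proliferating cells (MB) grew attached to a surface in DMEM with 20% FBS. Quiescent cells (G0) were held in suspension in the same medium, and replated cells (R2) were quiescent cells put back on a surface for 2 h. Differentiating cells (D48) stayed attached for 48 h in DMEM with 2% horse serum. No group was labelled as kept at low oxygen. A single cell line was used, and nothing in the labels says that arrays of a group came from separate cultures, so the tests measure the spread between these arrays.

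Glycolysis splits glucose into pyruvate in the cytosol: transporters take glucose in, hexokinase traps it as a phosphate, phosphofructokinase commits it to the pathway, and lactate dehydrogenase turns pyruvate into lactate when respiration does not use it. Hypoxia inducible factor (HIF) is a transcription factor whose alpha subunit is marked for breakdown by the oxygen-dependent prolyl hydroxylases Egln1 and Egln3. When oxygen is scarce the subunit persists and binds short DNA elements near its target genes, which include most glycolytic genes and genes for blood vessel growth, pH balance, mitophagy and collagen folding. Since this control acts on the protein, mRNA arrays do not show the activity of HIF itself.

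Values are deposited log2 expression values, and a change is a difference of group means on that scale with its limma standard error (SE). Group means of the array medians were 3.60 to 3.61 on proliferating, 3.81 to 3.82 on quiescent, 2.96 on replated and 3.69 to 3.71 on differentiating arrays. Changes between states therefore carry a difference in the overall level of the arrays, largest for replated cells. Arrays within a group correlated at 0.984 to 0.995, and no pair was identical. Ift88 itself was lower in IFT88KD cells by 0.69 log2 (SE 0.16, limma adjusted p = 0.0112) in quiescent cells. Its change was -0.52 (adjusted p = 0.294) in proliferating, -0.59 (adjusted p = 0.0525) in replated and -0.01 (adjusted p = 0.999) in differentiating cells, and the 3 IFT88KD arrays lay below the 3 control arrays in all but the last state. Of 7 myoblast markers, 6 were above the percentile (Myod1, Myf5, Des, Cdh15, Ncam1 and Vcam1) and Pax7 was not, on any array. Of 6 macrophage markers, Ptprc, Lyz2 and Adgre1 stayed under it in every group, and none of the endothelial, epithelial or adipocyte markers measured was tested. The number of arrays limits the precision.

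Most of these genes were higher in suspended, quiescent cells than in proliferating cells. In control cells 28 of the 29 tested members rose past an adjusted p of 0.05 and none fell, where 41.9% of all genes rose and 29.4% fell. The median change of the members was 2.38 log2, against 0.14 over all genes. Adm and Car9 passed the filter only through groups in which they were high. With no filter on low values 30 of 32 rose and none fell, where 34.0% of all genes rose and 22.4% fell. The median was then 2.16 against 0.08 over all genes. Of the 26 members above the percentile on all 24 arrays, 25 rose and none fell, with a median of 2.16 against 0.09 over all such genes. Among all 6911 such genes, 2745 rose and 2149 fell. Centring each array on its median kept 28 members higher but turned the split over all genes to 31.8% higher and 38.8% lower. IFT88KD cells gave 29 of 29 higher, with 40% of all genes higher and 29.2% lower, and a median of 2.28 against 0.12. Centring left 27 of the 29 higher in IFT88KD cells, with 29.5% of all genes higher and 39% lower. The exception in control cells was Hif1a. These are RNA levels of whole cultures, in which fewer cells of a type and less RNA per cell cannot be told apart.

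**Figure D1:**
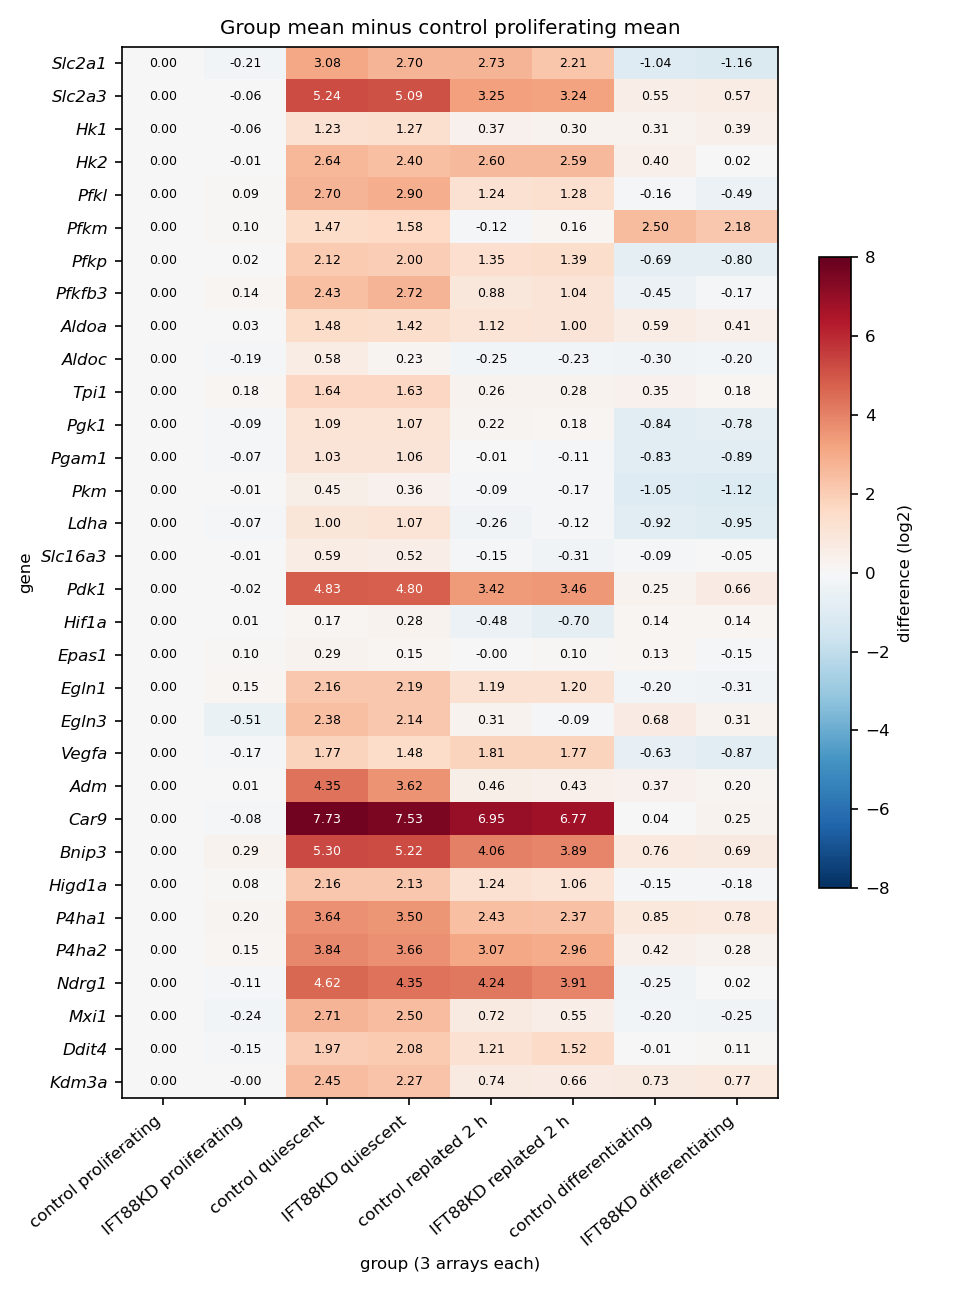
Mean log2 value of each measured gene in the 8 groups minus its mean in control proliferating cells, with 3 arrays per group, genes in rows by role, red for higher and blue for lower. The 4 columns of quiescent and replated cells are mostly red, with Car9 at 7.73 in control quiescent cells, while Pfkm is the only row at 2 or more in differentiating cells.

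The glucose transporters stood far above their proliferating level. Slc2a1, the ubiquitous transporter, read 7.72, 7.70 and 7.48 on the control proliferating arrays and 10.65, 10.85 and 10.63 on the control quiescent arrays, a rise of 3.08 (SE 0.10, limma adjusted p = 1.57e-16). The states did not overlap, and the other 2 probe sets of Slc2a1 rose by 3.23 and 3.35. Slc2a3, a high-affinity transporter, went from 3.47, 3.81 and 3.50 to 8.49, 9.18 and 8.83, a rise of 5.24 (SE 0.22, adjusted p = 5.15e-15). Of its 3 other probe sets, 1 rose by 5.76 and the dimmest pair changed by 0.08 and -0.03.

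Enzymes of the upper pathway rose by less. Hexokinases catalyse the first step, and Hk1 rose by 1.23 (SE 0.16) and Hk2 by 2.64 (SE 0.21). All 3 phosphofructokinase subunits rose, the liver form Pfkl by 2.70 (SE 0.26), the platelet form Pfkp by 2.12 (SE 0.12) and the muscle form Pfkm by 1.47 (SE 0.12). A second probe set of Pfkp rose by only 0.70. Pfkfb3, which makes an activator of phosphofructokinase, rose from 2.51 ± 0.24 to 4.93 ± 0.16 (mean ± SD, n = 3), with no overlap.

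The lower pathway rose by 0.45 to 1.64. Of its 7 listed genes 5 were tested and all 5 rose. Tpi1 (triose phosphate isomerase) rose by 1.64 (SE 0.13), Aldoa (aldolase) by 1.48 (SE 0.10), Pgk1 (phosphoglycerate kinase) by 1.09 (SE 0.13) and Pgam1 (phosphoglycerate mutase) by 1.03 (SE 0.09). Pkm, the pyruvate kinase gene, rose least, by 0.45 (SE 0.10, limma adjusted p = 0.000488). Ldha, which makes lactate from pyruvate, rose by 0.997 (SE 0.12). These genes were already bright in proliferating cells, with control means of 8.94 (Pgam1) to 10.45 (Pgk1), which gives no comparison of levels between genes. Aldoc, a second aldolase under the filter, read 1.87 ± 0.15 in control proliferating and 2.45 ± 0.51 in control quiescent cells. Slc16a3, a lactate exporter also under it, read 1.40 ± 0.27 and 1.99 ± 0.42.

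Pdk1, the kinase that keeps pyruvate out of mitochondria by blocking pyruvate dehydrogenase, rose by more than each of the glycolytic enzymes tested among the 29. It read 3.17, 3.33 and 3.40 on control proliferating arrays and 7.88, 8.40 and 8.11 on control quiescent arrays. The rise was 4.83 (SE 0.16, limma adjusted p = 9.96e-17), and a second probe set rose by 5.42.

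The factor and its sensors behaved differently. Hif1a read 8.72, 8.78 and 8.84 in control proliferating and 8.91, 8.98 and 8.95 in control quiescent cells. These arrays did not overlap, but the change was 0.17 (95% interval -0.07 to 0.40, limma adjusted p = 0.187), and its other probe sets gave 0.29, 0.05 and -0.13. In IFT88KD cells the same change was 0.27 (SE 0.11, adjusted p = 0.0378). That size includes the higher medians of the quiescent arrays, 3.81 against 3.61 in IFT88KD cells. Under other scalings, filters, probe sets and fits the control change ran from -0.05 to 0.17 and was never called. Epas1, the second alpha subunit, stayed under the filter with group means of 1.22 to 1.65. The oxygen sensor Egln1 went from 6.44, 6.33 and 6.44 to 8.51, 8.61 and 8.56, a rise of 2.16 (SE 0.10, adjusted p = 1.46e-14). Egln3, the other sensor, went from 6.73, 6.59 and 6.24 to 8.56, 9.13 and 9.01, a rise of 2.38 (SE 0.20, adjusted p = 5.25e-10). Both sensor genes are themselves known HIF targets, and neither overlapped between the states.

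Known HIF targets at the cell surface and outside it held the largest change of the group. Car9, a carbonic anhydrase that exports acid equivalents, read 1.15, 1.21 and 1.30 on control proliferating and 8.67, 9.11 and 9.07 on control quiescent arrays. The IFT88KD arrays read 1.17, 1.02 and 1.24, then 8.48, 8.70 and 9.06. Car9 was thus dim on all 6 proliferating arrays and bright on all 6 quiescent ones, and its rise of 7.73 in control cells (SE 0.18, limma adjusted p = 1.06e-18) ranked number 3 among 8616 genes. Adm, the vasodilator peptide adrenomedullin, rose by 4.35 (SE 0.17) and Vegfa, the main blood vessel growth factor, by 1.77 (SE 0.13). The proliferating values of Car9 and Adm lay under the 40th percentile, so the sizes of their rises depend on how the deposited values treat dim probe sets.

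Genes for mitochondria, collagen and growth restraint followed. Bnip3, a receptor that marks mitochondria for mitophagy, went from 5.22, 5.61 and 5.75 to 10.64, 10.96 and 10.87, a rise of 5.30 (SE 0.19, limma adjusted p = 5.41e-16) without overlap. Higd1a, a mitochondrial inner membrane protein, rose by 2.16 (SE 0.10). The collagen prolyl hydroxylases P4ha1 and P4ha2, which let collagen fold, rose by 3.64 (SE 0.15) and 3.84 (SE 0.13). Ndrg1, a stress-induced gene, rose by 4.62 (SE 0.13), and its 4 other probe sets rose by 4.72 to 5.12. Mxi1, an antagonist of Myc, rose by 2.71 (SE 0.17), and Kdm3a, a histone demethylase, by 2.45 (SE 0.13). Ddit4, which restrains the growth kinase mTOR, rose by 1.97 (SE 0.17).

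**Figure D2:**
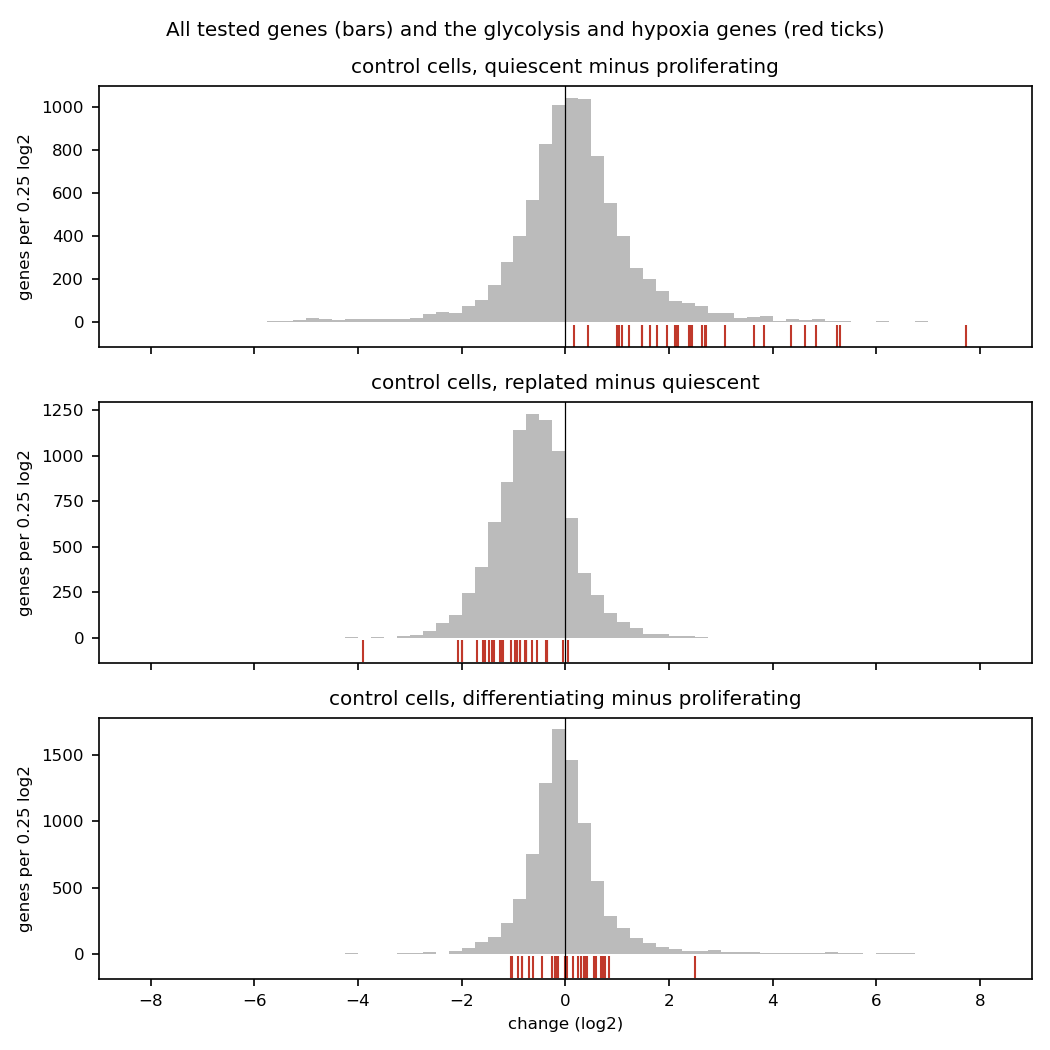
Number of tested genes (bars, per 0.25 log2) by change in control cells for 3 comparisons of states, with the 29 glycolysis and hypoxia genes as red ticks. The ticks lie right of 0 for quiescent minus proliferating cells, with a median of 2.38, left of it for replated minus quiescent cells, with a median of -0.97, and around it for differentiating minus proliferating cells, with a median of 0.04.

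The DNA upstream of the start of 5 members is shown because these genes moved by the most and the least among tested members with a single RefSeq start in the table used. Each line gives 250 bases before the start, 5′ to 3′ on the gene's strand, from RefSeq on build GRCm38.p6. Capitals mark ACGTG or GCGTG on either strand, the letters of the core of the hypoxia response element, with overlapping matches joined.
Car9: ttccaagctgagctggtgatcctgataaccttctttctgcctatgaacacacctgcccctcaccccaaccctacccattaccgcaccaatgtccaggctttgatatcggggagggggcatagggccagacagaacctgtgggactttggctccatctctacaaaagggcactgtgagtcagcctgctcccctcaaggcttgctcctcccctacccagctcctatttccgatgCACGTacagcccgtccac
Bnip3: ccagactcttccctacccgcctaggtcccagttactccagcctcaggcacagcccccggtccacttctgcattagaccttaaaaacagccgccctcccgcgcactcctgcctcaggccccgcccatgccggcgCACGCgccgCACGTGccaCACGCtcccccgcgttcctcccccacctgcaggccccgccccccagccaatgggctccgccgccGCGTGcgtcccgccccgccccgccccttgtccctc
Adm: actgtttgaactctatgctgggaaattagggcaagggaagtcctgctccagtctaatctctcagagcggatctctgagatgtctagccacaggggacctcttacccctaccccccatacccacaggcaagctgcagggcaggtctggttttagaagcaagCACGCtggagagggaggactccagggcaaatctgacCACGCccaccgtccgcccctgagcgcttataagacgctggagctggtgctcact
P4ha2: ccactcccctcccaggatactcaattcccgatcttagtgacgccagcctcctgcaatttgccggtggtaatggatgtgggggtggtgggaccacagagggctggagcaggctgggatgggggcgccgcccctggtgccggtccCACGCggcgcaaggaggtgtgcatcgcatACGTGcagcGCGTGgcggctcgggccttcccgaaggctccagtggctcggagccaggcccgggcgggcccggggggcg
Hif1a: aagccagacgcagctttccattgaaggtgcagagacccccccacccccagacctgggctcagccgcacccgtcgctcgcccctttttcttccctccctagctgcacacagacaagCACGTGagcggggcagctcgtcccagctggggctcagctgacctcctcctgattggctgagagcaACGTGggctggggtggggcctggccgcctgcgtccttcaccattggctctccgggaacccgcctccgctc
The windows are chr4:43506776-43507025 (plus strand) for Car9, chr7:138909507-138909756 (minus strand) for Bnip3, chr7:110627407-110627656 (plus) for Adm, chr11:54100674-54100923 (plus) for P4ha2 and chr12:73907617-73907866 (plus) for Hif1a. All are upstream of the annotated first exon.

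The 5 windows did not differ in whether they held the letters. Car9 held 1 match, 18 bases before the start, Bnip3 held 4, between 117 and 35 bases before it, and P4ha2 held 3, between 107 and 69. Adm held 2, at 90 and 54 bases, and Hif1a, whose mRNA changed least, also held 2, at 135 and 70. The joined matches CACGTG upstream of Bnip3 and of Hif1a are also the letters of an E-box, which other factors bind. Of the 29 tested members, 27 had a window in the table and Slc2a3 and Ndrg1 did not. The letters were in 26 of the 27 genes (96.3%) and in 32 of their 42 windows (76.2%), with Tpi1 the gene without them. They were in 63.1% of 6988 tested genes with a window, 56.8% of their windows, and 38.6% of all 32851 windows. The letters are short and occur often in GC-rich DNA, base composition was not matched, and a match is not a binding site. The number of windows per gene was not matched either. The list was drawn up to hold known HIF targets, so its higher share is no independent result.

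On the deposited scale most members read lower after 2 h back on a surface, but many stayed above their proliferating level. Against quiescent cells 27 of 29 members fell in control cells and none rose, where 66.2% of all genes fell and 9.73% rose. The members' median was -0.97, against -0.60 over all genes. In IFT88KD cells 27 fell and 1 rose (Vegfa, 0.29), with 66.3% of all genes lower and 10.2% higher. This comparison depends on how arrays are set on a common scale. After quantile normalisation 23 members fell and 1 rose (Vegfa, 0.38) in control cells, with 36.3% of all genes lower and 27.5% higher. With arrays centred on their medians 12 fell and 6 rose, with 20.4% of all genes lower and 47.2% higher.

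Some falls held under all 3 scalings. Adm read 5.12, 5.77 and 5.21 on control quiescent and 1.58, 1.41 and 1.43 on control replated arrays, a fall with a log2 change of -3.89 (SE 0.17, limma adjusted p = 1.28e-13). The change was -3.55 after quantile normalisation and -3.04 after centring. Its replated arrays all lay under the 40th percentile, so the size of this fall is not exact. Egln3 fell to 6.69, 7.09 and 6.69, a change of -2.08 (SE 0.20, adjusted p = 5.55e-09), and Mxi1 went from 8.24, 8.57 and 8.46 to 6.24, 6.70 and 6.37, a change of -1.99 (SE 0.17, adjusted p = 1.17e-09). Slc2a3 fell to 6.64, 7.11 and 6.78, a change of -1.99 (SE 0.22, adjusted p = 4.79e-08). None of the 4 genes overlapped between quiescent and replated cells. Under centring Egln3, Mxi1 and Slc2a3 still changed by -1.22, -1.13 and -1.13.

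Hk2 and Vegfa were the 2 members not called in control cells as deposited. Hk2 read 8.67 ± 0.08 on replated arrays against 8.71 ± 0.05 on quiescent ones (mean ± SD, n = 3), a change of -0.04 (95% interval -0.47 to 0.39, limma adjusted p = 0.867). Vegfa read 7.97, 8.04 and 8.16 against 7.82, 8.10 and 8.11, a change of 0.04 (95% interval -0.22 to 0.31, adjusted p = 0.765). Both overlapped between the states, and under centring both were called higher, by 0.82 and 0.90. Aldoa, Ndrg1, Pkm and Slc2a1 changed from called falls of -0.36, -0.37, -0.54 and -0.35 to called rises of 0.49, 0.48, 0.32 and 0.51 under centring, so their direction after replating is not settled by these data. Hif1a read 8.46, 8.27 and 8.19 on control replated arrays, a change of -0.64 (SE 0.11, adjusted p = 2.39e-05) that became 0.21 (adjusted p = 0.101) under centring. Egln1 read 7.59, 7.72 and 7.48, a change of -0.97 (SE 0.10, adjusted p = 1.06e-08) that became -0.11 (adjusted p = 0.331) under centring.

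Set against proliferating cells, replated cells still held much of the rise. This comparison was added after the values had been seen. In control cells 21 of 29 members were higher and 1 (Hif1a, -0.48) lower, where 23.7% of all genes were higher and 54.4% lower, and the members' median was 1.19 against -0.41 over all genes. In IFT88KD cells 21 were higher and 1 lower, with 22.4% of all genes higher and 54.9% lower. Counts rose to 26 higher after quantile normalisation and 28 after centring in control cells, with none lower in either, and all-gene shares of 38.3% higher and 37.7% lower and of 47.4% higher and 29.8% lower. Car9 stood 6.95 (SE 0.18) above its proliferating level, Ndrg1 4.24 (SE 0.13), Bnip3 4.06 (SE 0.19), Pdk1 3.42 (SE 0.16) and Slc2a1 2.73 (SE 0.10). Some of the later glycolytic genes were nearer that level as deposited, with Pgk1 at 0.22, Pgam1 at -0.01, Pkm at -0.09 and Ldha at -0.26, none of them called. After centring these 4 were called higher, by 0.86, 0.63, 0.55 and 0.39. Aldoa and Tpi1, also tested in the lower pathway, had their lowest control mean in proliferating cells. Aldoa lost only part of its rise on replating.

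**Figure D3:**
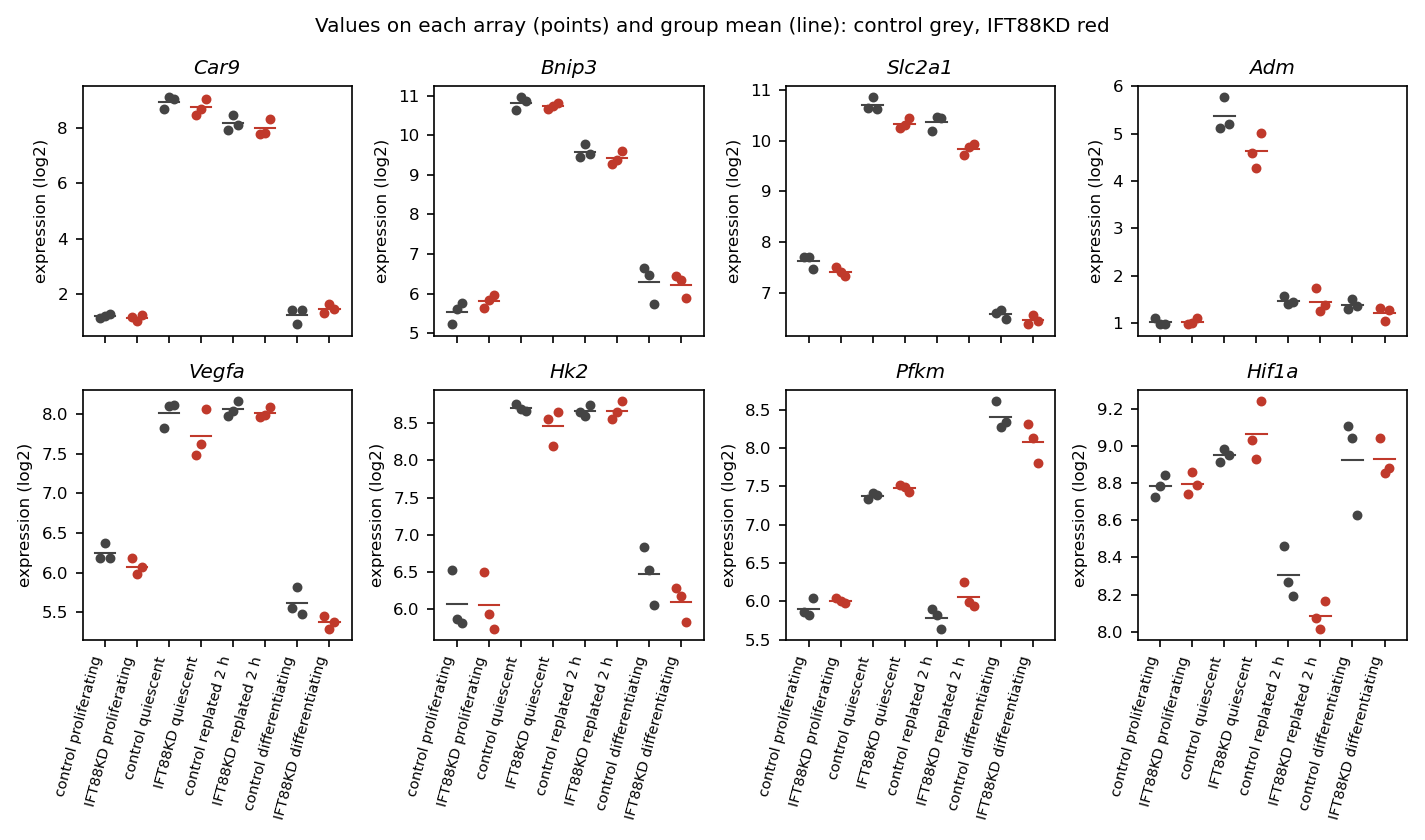
Log2 value on each array (points) and group mean (line) of 8 members in the 8 groups, control in grey and IFT88KD in red; each panel has its own vertical range. Car9, Bnip3, Slc2a1, Vegfa and Hk2 are high in both quiescent and replated cells, Adm is high in quiescent cells alone, Pfkm is highest in differentiating cells, and Hif1a lies between 8.02 and 9.24 on all arrays.

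Across the 4 states of control cells, 27 of 29 members had their highest mean in quiescent cells, where 39.9% of all tested genes had theirs. Vegfa was highest in replated cells, 0.04 above quiescent cells and within the spread between arrays, and Pfkm in differentiating cells. The lowest mean fell in proliferating cells for 13 members, in differentiating cells for 14 and in replated cells for 2 (Pfkm and Hif1a). Over all tested genes the shares were 21.5%, 15.8% and 54.6%. No member had its lowest mean in quiescent cells, where 8.14% of all tested genes had theirs. The overall scale of replated arrays bears on this order too.

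Differentiation moved the members in both directions. In control cells 9 of 29 members were higher and 8 lower at 48 h than in proliferating cells, where 24.6% of all genes were higher and 30.3% lower. The members' median was 0.04, against -0.06 over all genes. In IFT88KD cells 8 were higher and 9 lower, with 22.7% of all genes higher and 28.1% lower. After quantile normalisation 11 members were higher and 8 lower in control cells, with 26.8% of all genes higher and 27.8% lower. Under centring the split was 7 higher and 10 lower among members in control cells, and 20.2% and 37.5% over all genes. No called member changed its sign under quantile normalisation or centring.

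The largest rise was that of Pfkm, the phosphofructokinase subunit of muscle fibres. It read 5.85, 5.82 and 6.04 on control proliferating and 8.61, 8.28 and 8.34 on control differentiating arrays, a rise of 2.50 (SE 0.12, limma adjusted p = 4.04e-13) without overlap. Its value in quiescent cells lay between, at 7.33, 7.41 and 7.39. The other subunits did not share the rise: Pfkp changed by -0.69 (SE 0.12, adjusted p = 4.66e-05) and Pfkl by -0.16 (95% interval -0.70 to 0.37). Next came the hypoxia target P4ha1, from 6.20, 6.22 and 6.48 to 7.42, 7.03 and 6.99 (0.85, SE 0.15) without overlap. Bnip3 rose to 6.65, 6.47 and 5.75 (0.76, SE 0.19, adjusted p = 0.00205), with overlap, since its lowest array matched the highest proliferating one to 2 decimals. Kdm3a went from 5.80, 6.10 and 6.09 to 7.01, 6.48 and 6.69 (0.73, SE 0.13) without overlap. Egln3 rose to 7.38, 7.24 and 6.97 (0.68, SE 0.20), while Egln1 at 6.20, 6.06 and 6.35 changed by -0.20 (SE 0.10, adjusted p = 0.0810). Aldoa, Slc2a3, P4ha2 and Tpi1 rose by 0.59, 0.55, 0.42 and 0.35.

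The largest falls lay in glucose uptake and the later steps of glycolysis. Pkm went from 9.95, 10.11 and 10.09 to 8.90, 9.04 and 9.07, a change of -1.05 (SE 0.10, limma adjusted p = 2.26e-08). Slc2a1 went to 6.61, 6.68 and 6.50, a change of -1.04 (SE 0.10, adjusted p = 3.76e-08), and its other probe sets gave -0.97 and -0.98. Ldha went from 10.17, 9.94 and 9.93 to 9.27, 9.02 and 9.01, a change of -0.92 (SE 0.12, adjusted p = 1.26e-06). All 3 genes were lower on every differentiating array than on any proliferating one. Pgk1 went from 10.61, 10.39 and 10.35 to 9.90, 9.52 and 9.43 (-0.84, SE 0.13, adjusted p = 1.41e-05). Pgam1, Vegfa and Pfkfb3 changed by -0.83, -0.63 and -0.45. Pfkfb3 lay under the percentile on 2 of the 3 control differentiating arrays, so the size of its fall is not exact. Car9 read 1.44, 0.90 and 1.43, under the percentile on every array as in proliferating cells. Hif1a read 9.11, 9.04 and 8.63 (0.14, adjusted p = 0.287), and its other probe sets gave -0.15, -0.59 and 0.09.

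Few of these genes were called between IFT88KD and control cells in any state. In proliferating cells limma called none of the 29 members (1 at an unadjusted p under 0.05), with 0.348% of all genes called. In quiescent cells it called 2, both lower, with 5.25% of all genes called. In replated cells it called 1, lower, with 2.45% called, and in differentiating cells none (3 at an unadjusted p under 0.05), with 0.139% called. These counts lie near the share of all genes called and are no result about the members as a group. Medians of the change over the members were -0.01, -0.08, -0.06 and -0.06 in the 4 states, against 0.00, -0.01, 0.01 and 0.01 over all genes. The 95% interval lay inside 0.5 log2 either way for 23, 18, 20 and 19 of the 29 members, and inside 1 log2 for 29, 28, 29 and 29. With the replicate block, which pairs arrays of the same number within a state, the member counts stayed at 0, 2, 1 and 0. In that fit 6.84% of all genes were higher and 6.94% lower in quiescent cells, and 6.16% and 4.92% in replated cells.

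**Figure D4:**
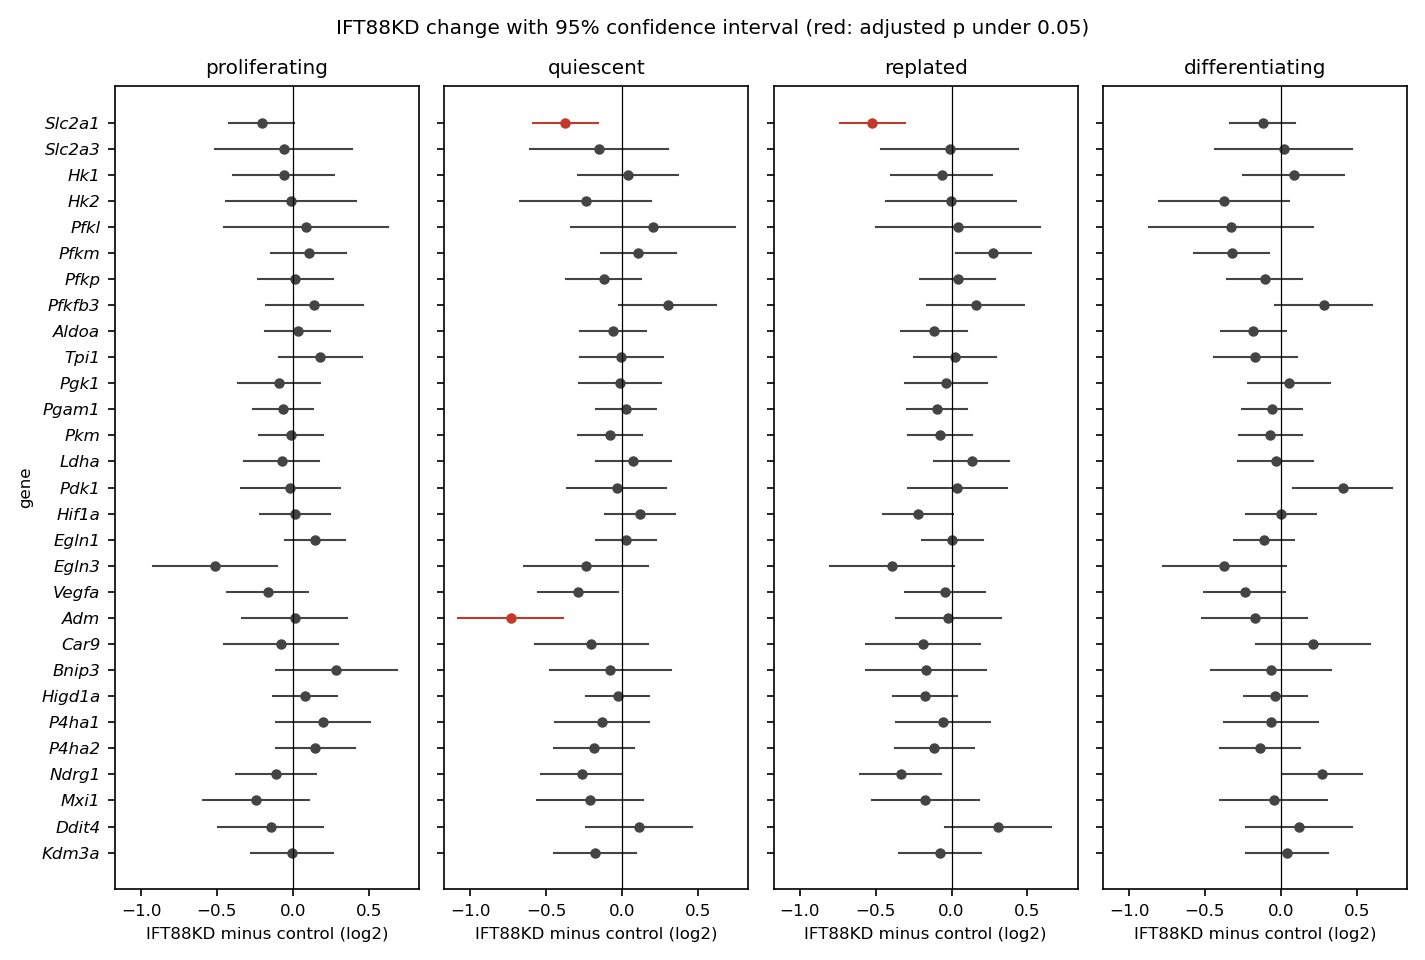
IFT88KD minus control (log2, points) with the 95% confidence interval (lines) for the 29 tested members in each of the 4 states, 3 arrays per group, red where the adjusted p is under 0.05. Red points are Slc2a1 and Adm in quiescent cells and Slc2a1 in replated cells, at -0.38, -0.73 and -0.52.

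Adm and Slc2a1 were the members called lower. In quiescent cells Adm read 5.12, 5.77 and 5.21 on control and 4.60, 4.29 and 5.01 on IFT88KD arrays. The IFT88KD arrays all lay lower, with a change of -0.73 (SE 0.17, limma adjusted p = 0.00989). In the other states Adm lay under the percentile on every array of both arms. This call was lost in a fit of the 6 quiescent arrays alone (adjusted p = 0.110). It was also lost on leaving out the second IFT88KD array (-0.56, adjusted p = 0.0737) or the second control array (-0.53, adjusted p = 0.0900). Slc2a1 read 10.65, 10.85 and 10.63 on control and 10.24, 10.30 and 10.45 on IFT88KD arrays, a change of -0.38 (SE 0.10, adjusted p = 0.0335) without overlap. Its other probe sets gave -0.43 and -0.51. The call was lost in the fit of the 6 arrays alone (adjusted p = 0.0839) and on leaving out any of the 6 but the third IFT88KD array. The adjusted p became 0.156 or 0.106 when the first or second IFT88KD array was dropped, and 0.0544 or 0.203 when the first or the second control array was. Without the third control array it was 0.0549.

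In replated cells Slc2a1 was again lower. It read 10.18, 10.46 and 10.44 on control and 9.72, 9.88 and 9.92 on IFT88KD arrays, a change of -0.52 (SE 0.10, limma adjusted p = 0.00574) without overlap. The call held on leaving out each of the 6 arrays and was lost in the fit of those 6 arrays alone (adjusted p = 0.111). In proliferating cells Slc2a1 read 7.72, 7.70 and 7.48 against 7.51, 7.43 and 7.34, a change of -0.21 (95% interval -0.42 to 0.01, adjusted p = 0.837). In differentiating cells it read 6.61, 6.68 and 6.50 against 6.39, 6.58 and 6.46, a change of -0.12 (95% interval -0.33 to 0.09). The sign was the same in all 4 states, and the difference of the effect between states was not called: it was -0.17 (adjusted p = 0.880) for quiescent against proliferating cells and -0.15 (adjusted p = 0.999) for replated against quiescent cells. Slc2a3, the other transporter, changed by -0.15 (95% interval -0.60 to 0.30) in quiescent and -0.01 (95% interval -0.47 to 0.44) in replated cells.

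Some changes were large for the group but were not called. Egln3 read 6.73, 6.59 and 6.24 on control and 6.05, 6.30 and 5.66 on IFT88KD proliferating arrays, a change of -0.51 (SE 0.20, limma adjusted p = 0.551) with overlap. It was also lower in the other states, by -0.24, -0.39 and -0.37, with adjusted p of 0.628, 0.370 and 0.999. In differentiating cells Pfkm read 8.61, 8.28 and 8.34 against 8.32, 8.13 and 7.81 (-0.32, adjusted p = 0.780) and Pdk1 read 3.81, 3.61 and 3.24 against 4.02, 4.09 and 3.77 (0.41, adjusted p = 0.856). Both overlapped between the groups. Within same-numbered arrays, all 3 differences had the sign of the mean for Egln3 in proliferating cells and for Pfkm and Pdk1 in differentiating cells, and the adjusted p with the replicate block was 0.0847, 0.103 and 0.171. These genes were picked for a small p in the same comparison, so the shared sign adds no support. Ndrg1 changed by -0.27 in quiescent (adjusted p = 0.301) and -0.33 in replated cells (adjusted p = 0.199), with all IFT88KD arrays below all control arrays in both. Hif1a changed by 0.01, 0.12, -0.22 and 0.00 and Egln1 by 0.15, 0.03, 0.01 and -0.11 in the 4 states, none of them called.

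No difference in the response to a state was called between the siRNA arms. limma called 0 of 29 members in each difference of the IFT88KD effect between states, with 1.28% of all genes called for quiescent against proliferating cells, 0.058% for replated against quiescent cells and 0.0464% for differentiating against proliferating cells. At an unadjusted p under 0.05 there were 1, 2 and 2 members. The 2 arms' changes differed by a median size of 0.12, 0.10 and 0.18 log2 over the members. The difference for Adm was -0.75 (95% interval -1.24 to -0.26, adjusted p = 0.179) in the first and 0.71 (95% interval 0.22 to 1.20, adjusted p = 0.999) in the second. Both set the quiescent change of Adm against states in which it lay under the percentile on every array, so they add little to that change. The first was called when the third IFT88KD quiescent array was dropped (-0.94, adjusted p = 0.0421). Pfkm differed most in the last, by -0.43 (95% interval -0.78 to -0.08, adjusted p = 1). Ndrg1, with the next smallest p there, read 5.93, 6.48 and 6.07 on control proliferating and 6.06, 5.82 and 5.84 on control differentiating arrays, against 6.05 ± 0.03 and then 6.18 ± 0.20 (mean ± SD, n = 3) on IFT88KD arrays, a difference of 0.38. P4ha2 in quiescent cells read 9.85, 10.07 and 9.80 on control and 9.51, 9.68 and 9.97 on IFT88KD arrays, with overlap, and its response from proliferation differed by -0.33. Hif1a differed by -0.34 in the second. The interval of every member reached beyond 0.25 log2 on at least 1 side. These intervals come from the fit that does not pair arrays, so they bound the differences no more narrowly than that, and a paired fit may differ.

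Other cell markers moved with these comparisons. The mean of the 6 macrophage markers was 1.94 to 2.00 on control proliferating, 3.14 to 3.21 on control quiescent and 2.48 to 2.71 on IFT88KD quiescent arrays. Of the 3 tested, all 3 rose in quiescent control cells (Cd14 by 3.80, Cd68 by 1.73, Csf1r by 1.48), and Cd68 and Cd14 were lower in IFT88KD than in control quiescent cells, by -1.32 and -1.54. Cd68 was under the percentile on all proliferating and all IFT88KD quiescent arrays. The mean of the 4 fibroblast markers was 2.88 to 3.45 on control proliferating, 4.80 to 4.89 on control quiescent and 4.71 to 4.88 on IFT88KD quiescent arrays. Of the 3 tested, Pdgfra and Pi16 rose in quiescent control cells, by 3.80 and 2.73, and Col1a1 fell by 0.84. Between the siRNA arms in quiescent cells, 1 of the 3 was called, lower, and 1 of the 3 read higher in IFT88KD cells. The median over the 3 was -0.35, with Pi16 at -0.46 and an upper quartile of 0.22, so these markers went both ways. Pi16 was under the percentile on all proliferating arrays. The mean of the 7 differentiated muscle markers was 3.30 to 5.99 on control proliferating, 6.59 to 7.05 on control quiescent and 10.01 to 10.14 on control differentiating arrays. In IFT88KD cells it was 4.42 to 6.80, 7.24 to 7.62 and 9.56 to 9.91. All 4 tested cell cycle genes of a proliferation list fell in quiescent control cells (median -3.84), and 3 of them were higher in IFT88KD than in control quiescent cells. The part of these in the results above was not tested.

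Genes of the same pathways beyond the 36 moved in both directions. A further list held 66 glycolytic isoforms, transporters, HIF regulators and hypoxia-induced genes, of which 52 were measured and 42 tested. In quiescent control cells 22 of the 42 rose and 6 fell, beside the 41.9% and 29.4% of all genes. The largest rises were those of the enolase Eno2, from 2.23 ± 0.39 to 8.37 ± 0.15 (6.14, SE 0.18, limma adjusted p = 1.40e-17), the carbonic anhydrase Car12 (6.03, SE 0.19) and Selenbp1 (5.26, SE 0.24). On proliferating arrays Car12 and Selenbp1 lay under the percentile throughout and Eno2 on 1 control array, so the sizes and order of these rises are not exact. Eno3, the muscle enolase, went the other way, from 10.20 ± 0.07 to 8.28 ± 0.18 (-1.92, SE 0.14). Tfrc, the transferrin receptor, changed by -2.16 and Stc2, a secreted glycoprotein, by -0.85. By role, 16 of 21 other hypoxia-induced genes rose and 2 fell, and 3 of 8 other glycolytic enzymes and isoforms rose and 1 fell. Of 5 other HIF regulators 2 rose and 0 fell, whereas among 8 other transporters and genes of pyruvate entry 1 rose and 3 fell.

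After replating 4 of the 42 rose and 32 fell in control cells, beside 9.73% and 66.2% of all genes. Angptl4, a secreted inhibitor of lipoprotein lipase, rose by 1.12, Errfi1, a feedback inhibitor of the EGF receptor, by 1.11 and Stc2 by 1.03, whereas Narf changed by -4.08, the glycogen synthase Gys1 by -2.19 and Eno2 by -2.16. During differentiation 13 rose and 9 fell, beside 24.6% and 30.3%. Pgam2, the muscle form of phosphoglycerate mutase, rose by 5.17 from 3.08 ± 0.51 to 8.25 ± 0.22, where the general form Pgam1 fell. Igfbp3, which binds insulin-like growth factors, rose by 1.90 and Rora, a nuclear receptor, by 1.49. Pdk4, another kinase of pyruvate dehydrogenase, changed by -2.70, Cited2, a competitor of HIF for its coactivator, by -1.37, and Pklr, the pyruvate kinase of liver and red cells, by -1.29. Igfbp3 lay under the percentile on all proliferating arrays and Pklr on all differentiating arrays, so both sizes are not exact.

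The siRNA against IFT88 raised 5 of these 42 genes in quiescent cells and lowered none, with 5.25% of all genes called. Angptl4 rose from 5.86 ± 0.13 to 6.80 ± 0.13 (0.94, SE 0.26, limma adjusted p = 0.0336) and Tfrc from 6.66 ± 0.06 to 7.37 ± 0.19 (0.72, SE 0.14, adjusted p = 0.00233). Stc2 rose by 0.67, Eno3 by 0.50 and Lox, the collagen cross-linking enzyme, by 0.37. The IFT88KD arrays of these 5 genes lay above all control arrays, but these are the arrays that gave the calls. The calls of this list were not put through the alternative fits. Eno3, Tfrc and Stc2 had fallen on entry into quiescence, whereas Angptl4 and Lox had risen. In replated cells 1 gene of the 42 was called, Pdk3 (0.56, SE 0.13, adjusted p = 0.0199), with 2.45% of all genes called. In proliferating and differentiating cells limma called none of the 42 (3 at an unadjusted p under 0.05 in each). There 0.348% and 0.139% of all genes were called. Counts in these 3 states lie near those shares and are no result about the list.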

How the data were processed

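Total RNA was taken with Trizol and 8 ug per sample was labelled for Affymetrix mouse arrays, per the labels' protocols. The deposited values are log2 expression values per probe set, 1 column for each of 24 arrays. The submitters' processing notes name Affymetrix Expression Console, GCOS and affy, and the method of normalisation is not given in the sources used here. No further scaling was applied.

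Of 22690 probe sets, 64 were controls, 20380 had 1 gene, 691 several and 1555 none. Symbols were updated through the gene identifiers to RefSeq on GRCm38.p6 (29 probe sets had no match there). Where a gene had several probe sets, the one of highest mean was used, and testing was limited to genes that passed the array's 40th percentile on 3 or more arrays. 1 linear model with a coefficient per group was fitted to all 24 arrays in limma 3.58.1 (R 4.3.3), with moderated statistics and Benjamini-Hochberg adjustment over 8616 genes and a threshold of 0.05. All p-values and 95% intervals come from it unless another fit is named. The fit was tested on simulated data.

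The genes and the further lists were chosen with earlier results of these data known. Values per array were given for members called in an IFT88KD comparison or, where none was, the 2 of smallest p, for the 4 largest rises and falls of each control state change, and for Hif1a, Epas1, Egln1 and Egln3; Ndrg1, Vegfa, Hk2 and others outside this rule were named after their values were seen. Of the further list, up to 3 rises and 3 falls per state change and each gene called in an IFT88KD comparison were named.

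Replicate numbers were checked for pairing: within a state, deviations of same-numbered arrays from their group means correlated at 0.257 to 0.708 between the siRNA arms, and differently numbered ones at most at 0.127. Each pair in each state passed 0.1, so the numbers were taken to pair arrays, a hint from the data that the labels do not state. Alternatives were quantile normalisation, median centring, dropping the filter or raising it to the 60th percentile, averaging all probe sets for each gene, x_at probe sets set aside, a trended robust variance, a replicate block, the compared groups alone, and leaving out each array. Upstream sequence was read from RefSeq windows and figures drawn with matplotlib 3.10.9.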

Additional observations from a re-analysis of the deposited data

How the results depend on the processing

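Of 56 results for named genes, 48 kept their side of the threshold under all alternatives run. A change of sign was counted only where a fit called the gene, and some uncalled changes did change sign. Egln1 between the siRNA arms in replated cells, for example, ran from -0.07 to 0.07 on leaving out 1 array. Counts of members called in comparisons of siRNAs or of their effects changed in 3 cases, and how scaling moves the split of calls between states is given with those comparisons. With only the arrays of the compared groups fitted, the members called between IFT88KD and control went from 2 to 0 in quiescent and from 1 to 0 in replated cells. Leaving out 1 array gave 0 to 3 in quiescent cells and 0 to 1 for the difference of the IFT88KD effect between quiescent and proliferating cells. Over its alternatives the adjusted p of Adm in quiescent cells ran from 0.00173 to 0.110, that of Slc2a1 from 0.00588 to 0.203, and that of Slc2a1 in replated cells from 0.00107 to 0.111. Hif1a in replated against quiescent control cells reversed to 0.21 with arrays centred on their median, by the construction of that scaling. Hif1a in differentiating control cells was called at 0.27 after quantile normalisation (adjusted p = 0.0327) and at 0.29 without control differentiating replicate 3 (adjusted p = 0.0251). Egln1 there was called at -0.29 with centring, -0.30 with the mean of its probe sets and -0.27 without that array. With the replicate block the calls were 0, 2, 1 and 0 members in the 4 states, the same genes, and it changed no other call of a named result. The smallest change that 3 arrays per group can show is set by their spread. Adm outside quiescent cells and Car9 in proliferating and differentiating cells were read under the 40th percentile, where sizes of change are not exact. Pfkfb3 was under it on 2 of 3 differentiating arrays in each siRNA arm.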
